A study of Solanum tuberosum with 72 samples.

Results

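PHA1 and PHA2 are 2 plasma membrane proton pump genes named on this potato cDNA array, and they were followed through salt, heat and cold in roots and leaves. The members are the spots whose gene symbol in the platform annotation, or in the RefSeq table of the assembly SolTub_3.0, is PHA1 or PHA2. This gave 2 of the 430 genes with a single symbol, 5 of 15360 printed clones and 10 of 32448 spots. PHA1 (gene 102592032) is represented by 1 clone, and PHA2 (gene 102582044) by 4 clones, called PHA2-A to PHA2-D here in the order of their spot numbers.

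A plasma membrane H+-ATPase is a single-chain pump that spends ATP to push protons out of the cell. The proton gradient and membrane voltage it builds drive the uptake of potassium, nitrate and sugars, and power the sodium/proton antiporter that, in Arabidopsis, exports sodium from root cells. The pump carries its own inhibitory tail. Phosphorylation near the end of that tail and binding of a 14-3-3 protein release the inhibition, so pump activity can change with no change of transcript.

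Potato seedlings of the variety Gilroy were raised from true seed for 5 weeks on rafts over hydroponic medium, at 25 °C with 16 h of light and 8 h of dark. The medium was then exchanged for medium with NaCl (salt), medium at 35 °C (heat, held in a water bath), medium at 4 °C (cold, held on ice) or plain fresh medium (no stress), and plants were taken after 3, 9 or 27 h. The salt dose is unsettled, since one label field gives 150 mM NaCl and another 100 mM. The 24 groups (roots and leaves, 4 treatments, 3 times) held 3 arrays each, 72 in all, and all plants shared the variety. Each sample pooled 6 plants from 2 boxes, the leaf samples are described as aerial tissue, and the experiment is stated to have been run 3 times independently.

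Every array set a query labelled with Cy3 (stressed plants, or further unstressed plants on the no-stress arrays) against a reference labelled with Cy5 that pooled unstressed plants from 6 boxes of the same tissue and time. No dye swap was made. The values are the authors' log2 ratios per spot, and the 2 spots of a clone were averaged. A positive ratio was taken as more signal from the query, so that a positive difference is higher in stressed plants. That reading is likely, from the labelled channels, but the table does not state it, the titles name the control first, and all directions given here would turn round together if it were wrong. Of the 2556 pairs of arrays 1 correlated below -0.3 over all clones, at -0.334. Because a ratio compares plants of the same tissue, neither the level of a pump in root against leaf nor the identity of a tissue by its markers can be read from these data.

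The clones differed in how often they gave a value. PHA1 (spots 147814 and 148658) and PHA2-D (spots 157335 and 158179) had values on all 72 arrays. PHA2-A (spots 131264 and 133123) had values on 45 arrays, PHA2-B (139857 and 140701) on 52 and PHA2-C (153330 and 154174) on 50. All 3 of these were measured on each of the 36 leaf arrays, so their gaps lie in root, where PHA2-A had 9 values, PHA2-B 16 and PHA2-C 14. The root values sit mostly on replicate 3: of its 12 arrays PHA2-A had a value on 9, PHA2-B on 12 and PHA2-C on 11. Of the 12 root arrays of replicate 2 they had a value on 0, 4 and 3. None of these 3 clones had a value on any of the 12 root arrays of replicate 1. Root arrays of replicate 1 held values for a median of 9447 clones, against 9106 for replicate 2 and 9126 for replicate 3. The rule that left spots empty is not given in the sources used here.

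Agreement between the 2 spots of a clone also differed. Pearson's r between the spots was 0.958 for PHA1 over 72 arrays, 0.967 for PHA2-A, 0.992 for PHA2-B and 0.986 for PHA2-C. PHA2-D stood apart with 0.683 and a median absolute difference between its spots of 0.11 log2 units, against 0.03 for PHA1.

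In roots under salt, PHA1 was higher than in unstressed roots on every array. At 3 h its log2 ratio was 0.47, 0.42 and 0.57 in salt, against 0.05, -0.23 and 0.23 without stress. At 9 h the salt arrays gave 0.48, 0.41 and 0.59, against -0.12, 0.16 and 0.24 without stress. At 27 h they gave 0.57, 0.46 and 0.54, against -0.05, -0.01 and -0.04 without stress. The salt and no-stress arrays of PHA1 did not overlap at any of the 3 times, as was the case in the higher direction for 19.3%, 15.8% and 13.7% of all clones with full values at 3, 9 and 27 h.

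The stress minus no-stress differences of PHA1 in salted roots were 0.47 ± 0.13 log2 units at 3 h (SE, adjusted p = 0.0111), 0.40 ± 0.13 at 9 h (adjusted p = 0.0746, not called) and 0.56 ± 0.13 at 27 h (adjusted p = 0.0156), by limma's moderated test with Benjamini-Hochberg adjustment over all clones of the comparison. Calls below use the same test at an adjusted p under 0.05. Averaged over the 3 times the difference was 0.48 ± 0.07, a 1.39-fold higher level (adjusted p = 2.96e-05). Of all clones tested, 21.5% were called at 3 h, 4.37% at 9 h, 2.4% at 27 h and 26.2% on the mean over times. In whole roots, more RNA per cell and more cells that express the gene cannot be told apart.

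The size of the PHA1 difference in salted roots did not change detectably with time. The difference at 27 h minus that at 3 h was 0.09 ± 0.18 (adjusted p = 0.849), and 2.89% of clones were called in that comparison. The mean over times stayed between 0.44 and 0.53 and was called under all 15 alternatives. Calls at single times were less stable: the 3 h call was lost with quantile normalization (adjusted p = 0.0684), with only the groups compared in the fit (0.093) and without no-stress replicate 2 (0.114). The 27 h call was lost without salt replicate 1 (0.0934), salt replicate 3 (0.0791), no-stress replicate 1 (0.0726) or no-stress replicate 2 (0.0503), while the 9 h difference became a call with array weights (0.00767) and against 0 (0.000276).

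Salt stood apart from the other treatments in the PHA1 root data. The 9 root salt arrays ran from 0.41 to 0.59, and the other 63 arrays of the series from -0.63 to 0.36. How many of all clones have a treatment set apart in this way was not counted. In roots PHA1 gave a median of 0.15 under heat (-0.09 to 0.36), 0.03 under cold (-0.23 to 0.26) and -0.01 without stress (-0.23 to 0.24), over 9 arrays each. Limma called neither heat nor cold for PHA1 in root at any time, and no unadjusted p was under 0.05 there. Its heat differences were 0.13, -0.05 and 0.24 (SE 0.13 each) at 3, 9 and 27 h, where 7.25%, 5.82% and 20% of clones were called. At 27 h the heat arrays did not overlap those without stress, as held for 17.6% of clones. The cold differences were 0.06, -0.12 and -0.06 (SE 0.13 each), where 13.2%, 26.3% and 39% of clones were called.

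Those treatments were also compared directly, as means over times in the same fit. PHA1 in root was higher in salt than in cold by 0.51 ± 0.07 (adjusted p = 2.32e-06), where 46.6% of clones were called, and higher in salt than in heat by 0.37 ± 0.07 (adjusted p = 0.000245), where 41.9% were called. Both calls held under all 14 alternatives.

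**Figure D1:**
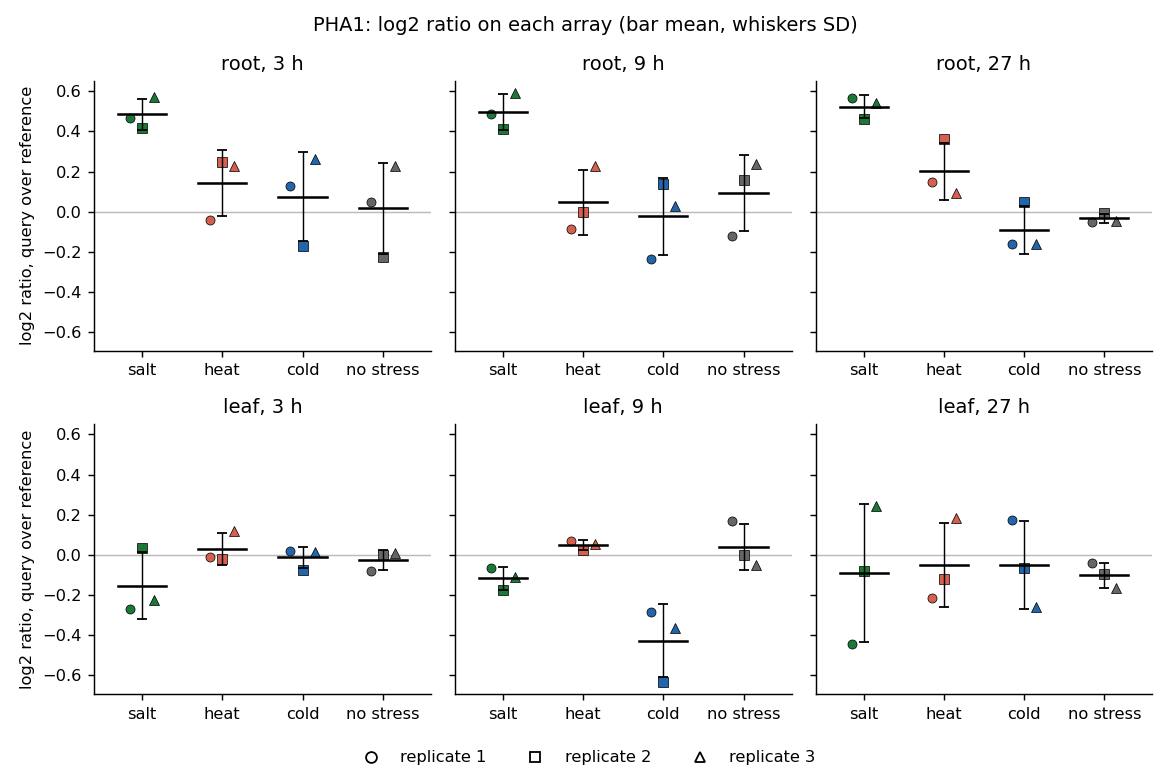
Log2 ratio (query over reference) of the PHA1 clone on each array, in root (top) and leaf (bottom) at 3, 9 and 27 h, with salt, heat, cold and no stress side by side. Points are arrays with the marker giving the replicate, bars are group means and whiskers the SD of 3 arrays. The 9 root salt arrays lie between 0.41 and 0.59, above all other arrays, and the leaf cold arrays at 9 h lie between -0.63 and -0.29.

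In leaves PHA1 did not follow the root pattern. At 3 h its log2 ratio was -0.27, 0.04 and -0.23 in salt, against -0.08, 0.00 and 0.01 without stress. At 9 h salted leaves gave -0.07, -0.18 and -0.11, against 0.17, 0.00 and -0.05 without stress. At 27 h they gave -0.44, -0.08 and 0.24, against -0.04, -0.10 and -0.17 without stress. The 2 sets overlapped at 3 h and 27 h, and at 9 h the salt arrays lay just below the others, as did 16.9% of all clones. The differences were -0.13, -0.16 and 0.01 (SE 0.14 each; adjusted p = 0.905, 0.541 and 0.98), and their mean was -0.09 ± 0.08 (adjusted p = 0.454). Of all clones, 0.808%, 7.48% and 11.9% were called in leaf salt at 3, 9 and 27 h, and 22.8% on the mean.

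Whether salt acted differently on PHA1 in leaf and root was tested over all 72 arrays. The salt difference in leaf minus that in root was -0.57 ± 0.11 averaged over times (adjusted p = 0.000403), and it ran from -0.65 to -0.50 under 15 alternatives, past the threshold in each. Among all clones tested 4.13% were called in this comparison. At single times the values were -0.60, -0.56 and -0.55 (SE 0.19 each) at 3, 9 and 27 h, and none passed (adjusted p = 0.0674, 0.214 and 0.193), in comparisons where 2.59%, 0.319% and 0.428% of clones were called, although all 3 passed with array weights (adjusted p = 0.02, 0.0115 and 0.00781) and against 0 (0.000567, 0.00251 and 0.00141).

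The only leaf call of PHA1 was in cold at 9 h. There the cold arrays gave -0.29, -0.63 and -0.37, against 0.17, 0.00 and -0.05 without stress. They did not overlap, as held in the lower direction for 19.4% of clones. The difference was -0.47 ± 0.14 (adjusted p = 0.0129), a level 0.72 times that of unstressed leaves, where 22.6% of clones were called. It was not seen at 3 h (0.01 ± 0.14) or 27 h (0.05 ± 0.14), where 16.8% and 21.6% of clones were called, and the mean over times was -0.13 ± 0.08 (adjusted p = 0.178). The 9 h call was lost with quantile normalization (adjusted p = 0.0967), with only the groups compared in the fit (0.0753), without cold replicate 2 (0.114) and without no-stress replicate 1 (0.083). Leaf heat left PHA1 within 0.05 of the no-stress leaves at each time (0.05, 0.01 and 0.05, SE 0.14 each), in comparisons where 0.679%, 0.18% and 0.644% of clones were called.

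Ranked by mean log2 ratio, the 24 groups of PHA1 ran from root salt at 27 h (0.52 ± 0.06, SD, n = 3), root salt at 9 h (0.50 ± 0.09) and root salt at 3 h (0.48 ± 0.08) down to leaf salt at 3 h (-0.15 ± 0.17) and leaf cold at 9 h (-0.43 ± 0.18). Of the 23 pairs of neighbours in that order, 2 had arrays that did not overlap: root salt at 3 h with root heat at 27 h (0.20 ± 0.14), and leaf salt at 3 h with leaf cold at 9 h. All other neighbours overlapped, and how often neighbours lack overlap among all clones was not counted.

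For PHA2, the clearest response was in cold leaves, and it was carried by 3 of its 4 clones. PHA2-B gave 1.66, 1.53 and 0.54 in cold leaves at 9 h, against 0.16, 0.07 and -0.08 without stress. PHA2-C gave 1.36, 1.07 and 0.51 in cold, against 0.19, 0.06 and -0.17 without stress, and PHA2-A gave 1.28, 0.63 and 0.30 in cold, against 0.18, 0.17 and -0.14 without stress. In none of the 3 clones did the cold and no-stress arrays overlap at 9 h, and in each replicate 3 was the lowest of the cold arrays.

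The 9 h differences were 1.19 ± 0.22 for PHA2-B (2.28-fold, adjusted p = 0.000185), 0.95 ± 0.22 for PHA2-C (1.93-fold, adjusted p = 0.0018) and 0.67 ± 0.17 for PHA2-A (1.59-fold, adjusted p = 0.00549). At 27 h PHA2-A, PHA2-B and PHA2-C were still higher, by 0.54 ± 0.17, 0.65 ± 0.22 and 0.71 ± 0.22 (adjusted p = 0.027, 0.0296 and 0.0178). The cold and no-stress arrays at 27 h did not overlap for PHA2-A and PHA2-C, but did for PHA2-B. Of all clones 19.3% at 9 h and 19.8% at 27 h did not overlap in the higher direction. At 3 h the differences of 0.17 ± 0.17, 0.41 ± 0.22 and 0.47 ± 0.22 did not pass (adjusted p = 0.559, 0.214 and 0.136), although that of PHA2-C passed without cold replicate 3 (0.68, adjusted p = 0.0259).

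Averaged over times, PHA2-A was higher in cold leaves by 0.46 ± 0.10 (adjusted p = 0.000483), PHA2-B by 0.75 ± 0.12 (1.79e-05) and PHA2-C by 0.71 ± 0.12 (3.52e-05). In that comparison 41.6% of all clones were called, and these 3 calls held under all 15 alternatives. Their 9 h calls were steadier than those at 27 h. At 9 h PHA2-B kept its call throughout, PHA2-C lost it with quantile normalization (adjusted p = 0.0775), and PHA2-A lost it with quantile normalization (0.181), with only the groups compared in the fit (0.117) and without cold replicate 1 (0.0755).

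At 27 h all 3 clones lost the call without no-stress replicate 2 (adjusted p = 0.13 for PHA2-A, 0.0993 for PHA2-B and 0.0801 for PHA2-C) and without no-stress replicate 3 (0.0908, 0.158 and 0.0733). PHA2-A and PHA2-B also lost it without cold replicate 1 (0.0541 and 0.142), without cold replicate 2 (0.0515 and 0.0568) and with quantile normalization (0.149 and 0.0579), and PHA2-B with only the groups compared in the fit (0.0725).

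**Figure D2:**
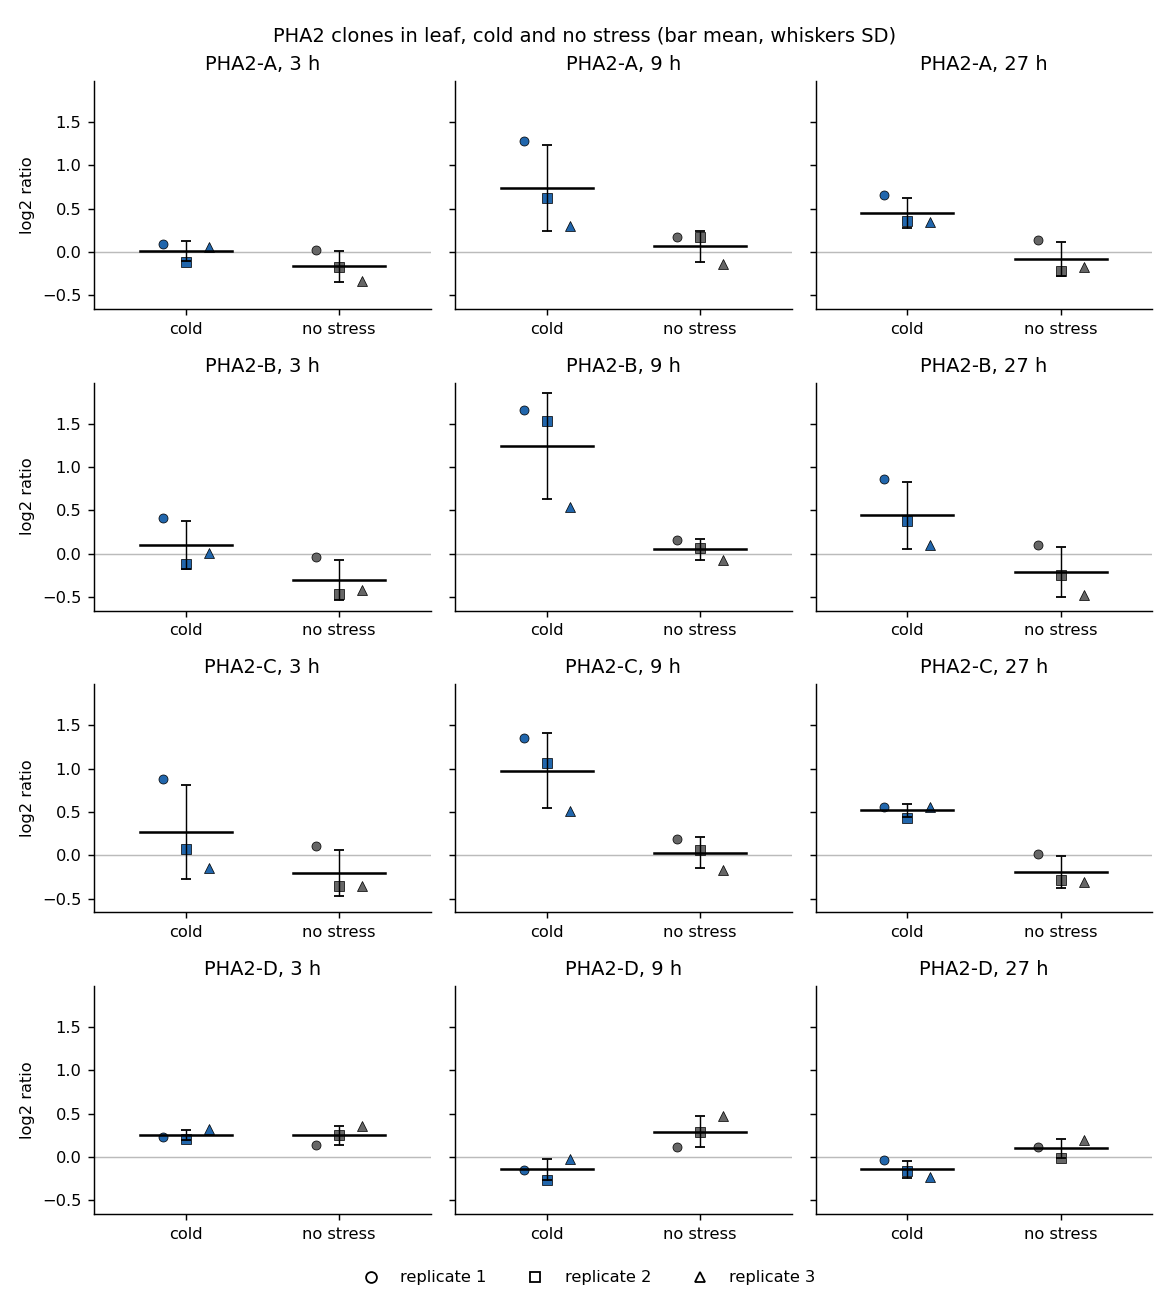
Log2 ratio of each PHA2 clone on the leaf arrays of cold and no stress at 3, 9 and 27 h. Points are arrays with the marker giving the replicate, bars are means and whiskers the SD of 3 arrays. PHA2-A, PHA2-B and PHA2-C lie above no stress at 9 h, with PHA2-B reaching 1.66, while PHA2-D lies below it, between -0.26 and -0.02 against 0.11 to 0.48.

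The fourth clone, PHA2-D, went the other way in cold leaves. At 9 h it gave -0.15, -0.26 and -0.02 in cold, against 0.11, 0.29 and 0.48 without stress, with no overlap at 9 h or at 27 h, as held in the lower direction for 19.4% and 20% of clones. Its differences were 0.01 ± 0.12 at 3 h, -0.44 ± 0.12 at 9 h (adjusted p = 0.00724) and -0.24 ± 0.12 at 27 h (adjusted p = 0.145), with a mean of -0.22 ± 0.07 (adjusted p = 0.00872). The unstressed leaves lay above 0 for this clone, at means of 0.25, 0.29 and 0.10 at 3, 9 and 27 h, none of them called different from 0. Set against 0 in place of the no-stress arrays, the 9 h cold arrays of PHA2-D were not called (-0.15, adjusted p = 0.172), nor was their mean over times (-0.01, adjusted p = 0.851). The 9 h call was also lost on the first spot alone (adjusted p = 0.168), with only the groups compared in the fit (0.0931), without cold replicate 2 (0.062) and without no-stress replicate 3 (0.0697), and the call of the mean on the first spot alone (0.173), without cold replicate 2 (0.0569) and without no-stress replicate 3 (0.103).

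The 4 clones of PHA2 thus did not give 1 response, and they were kept apart. Over the 36 leaf arrays Pearson's r was 0.937 between PHA2-A and PHA2-B, 0.906 between PHA2-A and PHA2-C, and 0.93 between PHA2-B and PHA2-C. PHA2-D correlated negatively with all 3 in leaf, at -0.483, -0.433 and -0.415 with PHA2-A, PHA2-B and PHA2-C. In root its r was 0.196 with PHA2-B (16 arrays) and 0.197 with PHA2-C (14 arrays), so the opposition was seen in leaf only. These are descriptions over arrays that share the same RNA within an array. Which of the clones hold only PHA2 sequence, and how far each binds transcripts of PHA1 or other pump genes, was not tested, and no clone sequence was at hand here.

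**Figure D3:**
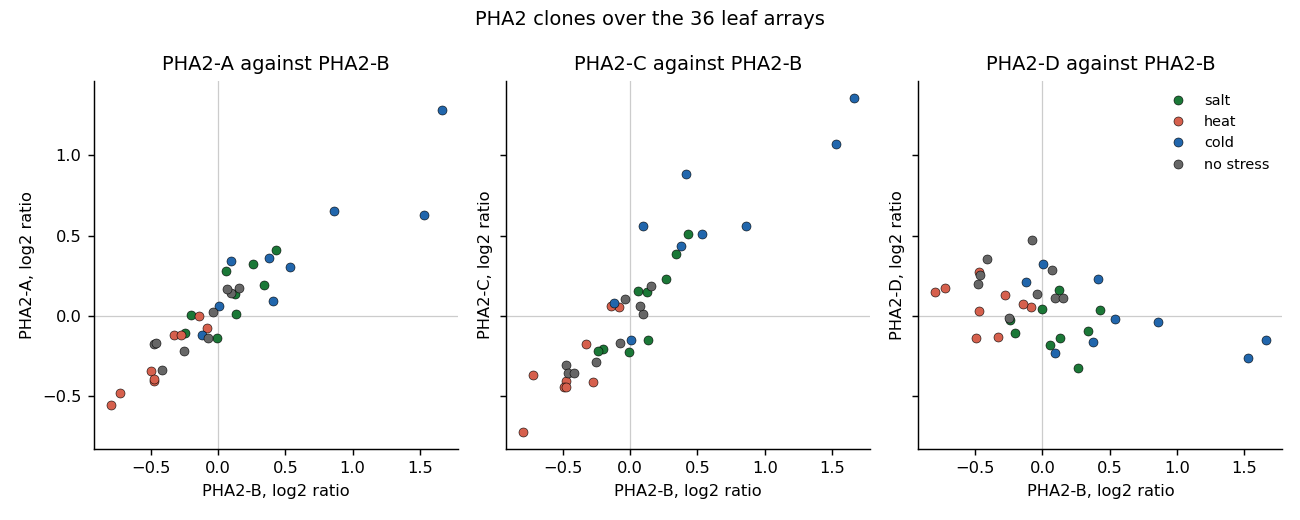
Log2 ratios of PHA2-A, PHA2-C and PHA2-D (vertical axes) against PHA2-B (horizontal axis) on the 36 leaf arrays, coloured by treatment. PHA2-A and PHA2-C rise with PHA2-B (r = 0.937 and 0.93), with cold arrays at the top right, and PHA2-D does not (r = -0.433).

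Under salt in leaves, PHA2-A, PHA2-B and PHA2-C had positive differences that did not pass at any time. At 9 h PHA2-B gave 0.26, 0.34 and 0.43 in salt, against 0.16, 0.07 and -0.08 without stress. PHA2-A gave 0.32, 0.20 and 0.41 in salt, against 0.18, 0.17 and -0.14 without stress, and PHA2-C gave 0.23, 0.38 and 0.51 in salt, against 0.19, 0.06 and -0.17 without stress. The arrays of all 3 clones did not overlap at 9 h, as held in the higher direction for 15.9% of all clones. At 3 and 27 h all 3 overlapped.

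The leaf salt differences of these 3 clones ranged from 0.11 to 0.35 over the 3 times (adjusted p between 0.358 and 0.963), and their means over times were 0.18 ± 0.10, 0.25 ± 0.12 and 0.19 ± 0.12 for PHA2-A, PHA2-B and PHA2-C (adjusted p = 0.207, 0.153 and 0.298). PHA2-B alone passed on the mean with array weights (adjusted p = 0.0347) and with only the groups compared in the fit (0.0385). PHA2-D was lower in salted leaves. At 9 h it gave -0.32, -0.10 and 0.03 in salt, against 0.11, 0.29 and 0.48 without stress. Its differences were -0.24 ± 0.12, -0.42 ± 0.12 and -0.19 ± 0.12 at 3, 9 and 27 h (adjusted p = 0.599, 0.0255 and 0.341), with a mean of -0.28 ± 0.07 (adjusted p = 0.00278). Salt and cold share the same no-stress arrays, so the lower values of PHA2-D in both rest in part on the same unstressed leaves. Against 0 neither the 9 h value (-0.13, adjusted p = 0.26) nor the mean (-0.07, adjusted p = 0.237) was called. The 9 h call of PHA2-D was lost under 8 of 15 alternatives, among them either spot alone (adjusted p = 0.0874 and 0.0655), only the groups compared in the fit (0.133) and without salt replicate 1 (0.122), salt replicate 2 (0.0828), no-stress replicate 2 (0.0916) or no-stress replicate 3 (0.174).

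The leaf treatments were also set against each other without the no-stress arrays. Salt was below cold by 0.50 ± 0.12 for PHA2-B (log2 difference -0.50, adjusted p = 0.00426), with -0.52 ± 0.12 for PHA2-C (adjusted p = 0.0029) and -0.28 ± 0.10 for PHA2-A (adjusted p = 0.0456), where 23.2% of clones were called. Salt was above heat by 0.52 ± 0.12 for PHA2-B (adjusted p = 0.00213), 0.40 ± 0.10 for PHA2-A (0.00305) and 0.39 ± 0.12 for PHA2-C (0.0199), where 28.4% were called. So in leaf the 3 clones ran in the order heat, salt, cold from low to high, while PHA2-D showed no called difference between treatments (salt minus cold -0.06 ± 0.07, salt minus heat -0.14 ± 0.07) and neither did PHA1 (0.04 ± 0.08 and -0.13 ± 0.08). The salt minus cold calls were lost with quantile normalization for all 3 clones (adjusted p = 0.368 for PHA2-A, 0.109 for PHA2-B and 0.0923 for PHA2-C) and without cold replicate 1 for PHA2-A (0.309) and PHA2-B (0.0743). PHA2-A lost its call in 8 of 14 alternatives. For salt minus heat, PHA2-C lost its call without heat replicate 2 (0.0935), heat replicate 3 (0.105) or salt replicate 3 (0.0828).

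Heat alone gave no call of a PHA2 clone in leaf. Over 9 arrays each, PHA2-A had a median of -0.34 in heat (-0.56 to -0.001) and -0.14 without stress (-0.34 to 0.18). The median of PHA2-B was -0.47 in heat (-0.80 to -0.08) and -0.08 without stress (-0.47 to 0.16), and that of PHA2-C was -0.41 in heat (-0.72 to 0.06) and -0.17 without stress (-0.36 to 0.19). All 3 ranges overlapped. At 3 h alone the heat arrays of PHA2-A, PHA2-B and PHA2-C lay below those without stress, as did 10.3% of clones, and at 9 h those of PHA2-B, as did 8.05%. The mean differences over times were -0.22 ± 0.10, -0.27 ± 0.12 and -0.19 ± 0.12 for PHA2-A, PHA2-B and PHA2-C, and -0.14 ± 0.07 for PHA2-D (adjusted p between 0.184 and 0.381), where limma called 0 of the 5 pump clones and 8.48% of all clones. At an unadjusted p under 0.05, 3 of the 5 pump clones would pass on the mean over times and 0 at any single time. Against 0, the heat means of PHA2-A, PHA2-B and PHA2-C were called (-0.28, -0.42 and -0.32, adjusted p = 0.00459, 0.000784 and 0.0086). The share of all clones passing at an unadjusted p under 0.05, or called against 0, is not given here, so these counts cannot be weighed against it.

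**Figure D4:**
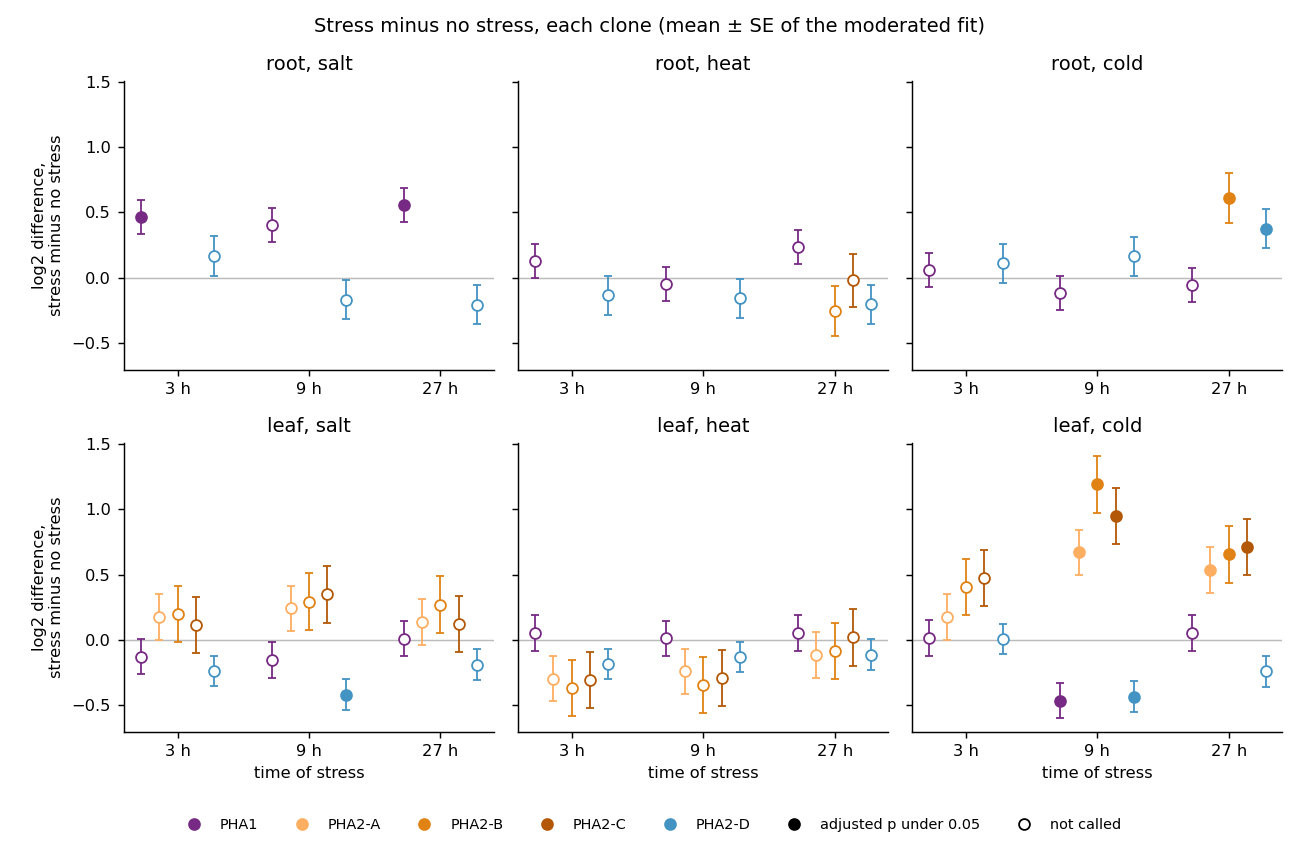
Log2 difference, stress minus no stress, of each PHA1 and PHA2 clone at 3, 9 and 27 h, in root (top) and leaf (bottom) under salt, heat and cold. Points are estimates with the SE of the moderated fit, filled where the adjusted p is under 0.05. PHA1 in root salt (0.40 to 0.56) and PHA2-A, PHA2-B and PHA2-C in leaf cold (up to 1.19) stand out, and clones with too few root values have no point.

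In root, PHA2 could be followed mainly through PHA2-D. At 3 h it gave 0.58, 0.44 and 0.39 in salt, against 0.32, 0.19 and 0.40 without stress. At 9 h salted roots gave 0.19, 0.10 and 0.04, against 0.32, 0.36 and 0.16 without stress. At 27 h they gave 0.21, -0.03 and -0.14, against 0.50, 0.27 and -0.10 without stress. These overlapped at each time, and the differences of 0.17, -0.17 and -0.21 (SE 0.15 each) were not called (adjusted p = 0.453, 0.604 and 0.595). Their mean was -0.07 ± 0.09 (adjusted p = 0.603), and it turned to 0.20 against 0 (adjusted p = 0.00775), since the unstressed roots of PHA2-D themselves lay above 0 (means 0.30, 0.28 and 0.22).

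Root values of PHA2-A, PHA2-B and PHA2-C under salt came from single arrays and were not tested. On replicate 3, PHA2-B gave -0.79, -0.10 and -0.31 at 3, 9 and 27 h in salt, against 0.10, 0.22 and -0.34 without stress. PHA2-A gave -0.07 and -0.30 at 9 and 27 h in salt, against 0.12 and -0.23 without stress. PHA2-C gave -0.13 and -0.15 at 9 and 27 h in salt, against 0.01 and -0.56 without stress. With 1 salt array at a time there is no replicate check on these values.

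At single times, cold in root was called for PHA2 at 27 h only. There 39% of all clones were called, and 20.4% were called higher. PHA2-B, with 2 arrays in each group, gave 0.15 and 0.41 in cold, against -0.32 and -0.34 without stress, a difference of 0.61 ± 0.19 (1.53-fold, adjusted p = 0.0359). Its replicate 2 values, 0.15 in cold and -0.32 without stress, came from 1 spot each. PHA2-D gave 0.76, 0.62 and 0.42 in cold, against 0.50, 0.27 and -0.10 without stress. Its groups overlapped, and its difference of 0.38 ± 0.15 passed narrowly (adjusted p = 0.047, replicate block 0.0531). PHA2-C had 1 cold array, at 0.47, against -0.24 and -0.56 without stress, and PHA2-A gave 0.09 in cold, against -0.23 without stress, on replicate 3. Neither was tested. At 3 and 9 h PHA2-D was higher by 0.11 ± 0.15 and 0.16 ± 0.15, not called.

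Both root cold calls depended on the processing. The PHA2-D value at 27 h reversed to -0.07 with quantile normalization (adjusted p = 0.831) and was not called under 10 of 15 alternatives. These included leaving out cold replicate 1 (0.189), cold replicate 2 (0.112), no-stress replicate 2 (0.0803) or no-stress replicate 3 (0.316). The mean of PHA2-D over times (0.22 ± 0.09, adjusted p = 0.0439), in a comparison with 42.9% of clones called, reversed to -0.06 with quantile normalization and was lost without any 1 of cold replicates 1, 2 and 3 (0.0837, 0.0713 and 0.107) and without no-stress replicate 2 (0.0923) or 3 (0.174). The PHA2-B call was lost without cold replicate 3 (0.119), no-stress replicate 2 (0.106) or no-stress replicate 3 (0.118), on the first spot alone (0.0501) and against 0 (0.116).

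Between treatments in root, PHA2-D was lower in salt than in cold (-0.29 ± 0.09, adjusted p = 0.00788), whereas PHA1 was higher in salt than in cold, as given above. The PHA2-D call was lost with quantile normalization (0.187) and without salt replicate 3 (0.0593). Salt minus heat was 0.10 ± 0.09 for PHA2-D (adjusted p = 0.399), the same sign as for PHA1 but not called. Between tissues, the cold difference of PHA2-D in leaf minus that in root was -0.44 ± 0.11 (adjusted p = 0.00204), where 20% of clones were called. That call was lost with quantile normalization (-0.26, adjusted p = 0.211) and without no-stress replicate 3 (adjusted p = 0.0524).

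Root heat gave no call of a PHA2 clone. PHA2-D differed by -0.13, -0.16 and -0.20 (SE 0.15 each) at 3, 9 and 27 h. PHA2-B at 27 h gave -0.56 and -0.61 in heat, against -0.32 and -0.34 without stress, a difference of -0.25 ± 0.19 (adjusted p = 0.4), and PHA2-C gave -0.53 and -0.30 in heat, against -0.24 and -0.56 without stress (-0.02 ± 0.20, adjusted p = 0.957).

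Counted over the 18 comparisons of a stress with no stress, 66 pairs of a clone and a comparison could be tested and 13 were called, 10 higher and 3 lower. The share called over all clones was not computed for the same set of pairs, so this total cannot be weighed against it. In the comparisons without a pump call, between 0.18% (leaf heat at 9 h) and 26.3% (root cold at 9 h) of all clones were called. PHA1 accounted for 2 higher calls in root and 1 lower call in leaf. PHA2-A, PHA2-B and PHA2-C each had 2 higher calls in leaf, all in cold, and PHA2-B had 1 more in root cold. The leaf calls of these 3 clones come from the same arrays, so they are not independent of each other. PHA2-D had 2 lower calls in leaf and 1 higher call in root. The matching shares of all clones in the same direction were 12.1% and 1.69% called higher in root salt at 3 and 27 h, 20.4% called higher in root cold at 27 h, 12% and 11.4% called higher in leaf cold at 9 and 27 h, 10.5% called lower in leaf cold at 9 h, and 3.76% called lower in leaf salt at 9 h.

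PHA1 and PHA2 were also compared within each array, by an exact permutation test of the PHA1 minus PHA2-D log2 ratio, two-sided, over the 8000 ways of exchanging stress and no-stress arrays within times, with adjustment over 6 tests. In salted roots PHA1 gained 0.55 log2 units on PHA2-D relative to unstressed roots (exact p = 0.0002, adjusted p = 0.0015), and this held under every alternative tried, between 0.46 and 0.66. No alternative in root used a PHA2 clone other than PHA2-D, so the root results rest on that clone. In heated roots the gain was 0.27 (exact permutation, adjusted p = 0.0442, replicate block 0.1016), and its call was lost when any 1 replicate of heat or no stress was left out except no-stress replicate 3 (adjusted p between 0.057 and 0.116). In cold roots the value was -0.26 (exact permutation, adjusted p = 0.0775, or 0.048 without no-stress replicate 1). In leaves it was 0.19 for salt, 0.18 for heat and 0.09 for cold (exact permutation, adjusted p = 0.1641, 0.0904 and 0.2742), with that for heat called without no-stress replicate 1 (0.048). The choice of clone decided the leaf result: with PHA2-B in place of PHA2-D, an alternative added after the values were seen, PHA1 lost 0.88 log2 units on PHA2 in cold leaves (log2 value -0.88, exact permutation, adjusted p = 0.0023) and 0.35 in salted leaves (log2 value -0.35, adjusted p = 0.0128), and gained 0.30 in heated leaves (adjusted p = 0.0132).

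Genes that can act on the pump were counted next. The list of pump regulators held 10 clones of 7 genes: 16R and 30G, which encode 14-3-3 proteins, CDPK1, CDPK2, CDPK4 and CDPK5, which encode calcium-dependent protein kinases, and StP2C, a protein phosphatase of type 2C, a family that in Arabidopsis removes the activating phosphate. In salted roots at 3 h, 3 of 10 clones were called higher and 0 lower, against 12.1% called higher over all clones, with a list median of 0.17 against 0.01 over all clones. StP2C was higher by 1.30 ± 0.39 (adjusted p = 0.0189) and CDPK5 by 0.67 ± 0.18 (adjusted p = 0.0092) on its larger clone. At 9 h 0 of 9 were called (4.37% of all clones), and at 27 h 1 of 9 was called lower (0.713% of all clones), a 16R clone at -1.29 ± 0.24 (adjusted p = 0.00284). In salted leaves 0 of 8 and 0 of 10 were called at 3 and 9 h (0.808% and 7.48% of all clones), and 2 of 10 were called lower at 27 h (6.09% of all clones), both 16R clones (-0.86 ± 0.25 and -1.27 ± 0.40, adjusted p = 0.0249 and 0.0354). The list medians there were 0.05, 0.01 and -0.12. On the mean over times, 2 of 9 clones were called lower and 0 higher in salted roots (26.2% of all clones called either way), and 2 of 8 lower and 0 higher in salted leaves (22.8%), in both tissues a 16R clone and CDPK2, named after their values were seen.

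In cold, where PHA2-A, PHA2-B and PHA2-C were higher in leaf, 4 of 8, 2 of 9 and 4 of 10 pump regulator clones were called higher in leaf at 3, 9 and 27 h, against 9.84%, 12% and 11.4% of all clones, with 1 called lower at 27 h (10.1% of all clones). In cold roots 3 of 10, 2 of 9 and 6 of 9 were called higher, against 6.18%, 14.1% and 20.4% of all clones, with 1 lower at 9 h and 1 lower at 27 h, where 12.3% and 18.6% of all clones were called lower. The list medians in leaf cold were 0.34, 0.14 and 0.34, against -0.01, -0.01 and 0 over all clones. In root cold they were -0.04, 0.22 and 0.56, against 0.01, -0.01 and -0.003 over all clones.

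The transport list held 7 clones of 5 genes: the potassium channels KST1 and SKT3, the sucrose transporter SUT2, the membrane intrinsic protein MIP2 and the aquaporin XIP1-1-BETA. In salted roots 1 of 4 tested clones was called at 3 h, a KST1 clone at 0.53 ± 0.11 (adjusted p = 0.000925), where 21.5% of all clones were called, and 0 of 4 at 9 and 27 h (4.37% and 2.4%). In salted leaves 0 of 5 were called at 3 h, and MIP2 was the single clone of 5 called at 9 h (-1.06 ± 0.22, adjusted p = 0.00226) and at 27 h (-0.82 ± 0.22, adjusted p = 0.012), where 7.48% and 11.9% of all clones were called, and 0.808% at 3 h. On the mean over times KST1 was higher (0.28 ± 0.06, adjusted p = 0.00159) and MIP2 lower (-0.32 ± 0.10, adjusted p = 0.0187) among 4 clones in salted roots, where 26.2% of all clones were called, and MIP2 was lower among 5 in salted leaves (-0.55 ± 0.12, adjusted p = 0.00183), where 22.8% were. The list medians under salt lay between -0.04 and 0.06 in root, and between -0.07 and 0.09 in leaf. Among the 815 clones with 1 gene symbol, none matched a symbol sought for a vacuolar pump or another plasma membrane H+-ATPase gene. Only 905 of the 15360 printed clones are annotated, so such genes could be on the array without a symbol.

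The genes whose log2 ratios were most like those of a pump over the arrays were found among 282 named clones with enough values, as a description. For PHA1 they were StMPK4 (a MAP kinase, r = 0.475), METK1 (S-adenosylmethionine synthetase, 0.413), GPI (0.379), v3 (0.379, 71 arrays) and R1 (0.375), over 72 arrays unless stated. For PHA2-D they were dof1 (0.598), IAA3 (an Aux/IAA repressor, 0.594), 1 of 6 clones of a gene named Cyp (0.515, with the lowest of the 6 at -0.606), InvCD141 (0.499) and PPS6 (0.489). PHA1 and PHA2-D themselves correlated at 0.2 over 72 arrays, 0.251 in leaf and -0.188 in root. Arrays of 1 group and of 1 reference share RNA, so the points are not independent.

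Clones of green tissue genes were also followed in the root arrays. Their ratios compare root with root and cannot be read as an amount of shoot material. The median log2 ratio per array was taken over those of 15 clones of cab1, PSBO, psbP and PSBR that had a value. It ran from -0.64 to -0.03 on the 9 root salt arrays, against -0.29 to 0.30 on the 9 root no-stress arrays. Between 10 and 15 clones had a value on the salt arrays and between 9 and 15 on the others, so the clones behind each median differ. In salted roots 2 of 13, 0 of 14 and 0 of 11 tested green clones were called higher at 3, 9 and 27 h, and none lower, with list medians of -0.47, -0.23 and -0.16. At 3 h 12.1% of all clones were called higher. The 2 called were both PSBR clones (0.84 ± 0.29 and 0.82 ± 0.28). On the mean over times, where 26.2% of all clones were called, 0 of 11 green clones were called higher and 1 lower, a psbP clone (-0.55 ± 0.21), with a list median of -0.26. In cold roots at 27 h, beside the PHA2-B and PHA2-D calls, 2 of 14 green clones were called higher and 11 lower, against 20.4% and 18.6% of all clones, with a median of -1.94 and array medians from -2.42 to -1.43. At 3 and 9 h in cold roots 3 of 12 and 6 of 13 were called lower, against 6.99% and 12.3% of all clones, and 0 higher. The part of green tissue in the pump results was not tested.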

How the data were processed

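Log2 ratios per spot were deposited by the authors and used as they were, with array medians between 0 and 0.014. No source used here gives the authors' steps before deposit (background correction, normalization, the filter that emptied spots), and the number of arrays limits the precision. The 2 spots of each clone, placed by a layout inferred from the spot order (905 of 905 annotated pairs share their annotation), were averaged, giving 11037 clones with a value.

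Salt, heat and cold were each set against no stress within tissue and time by limma (3.58.1, R 4.3.3), two-sided, over the 36 arrays of a tissue, with no block, where at least 2 of 3 arrays per group had a value. Comparisons of leaf with root used all 72 arrays. P-values were adjusted (Benjamini-Hochberg) over all clones tested, with a threshold of 0.05. PHA1 minus PHA2 was tested by exact permutation in Python 3.11.15, for each gene on the clone with values on most arrays. Tested on simulated root salt data at 3 h (8620 clones), the fit recovered 34.8%, 85.1% and 95.5% of changes of 0.5, 1 and 2 log2 units, with 4 false among 148 calls. The simulation changed 66, 67 and 67 clones by these sizes and drew independent noise for each array. In the real comparison 21.5% of clones were called and same-numbered arrays deviated together, so these rates need not hold for it.

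Every clone of PHA1 and PHA2 was named. Per list, tissue and direction up to 2 called clones in salt were named, and the 5 most alike genes per clone measured on at least 60 arrays. Members and lists were chosen with earlier results of these data known. All 815 clones with 1 gene symbol matched the RefSeq table by gene identifier. Replicate numbers come from the sample titles. Same-numbered arrays deviated together (r over 0.1) in 44 of 54 pairs, and in every pair of 10 of 18 comparisons, among them all 3 of leaf salt, all 3 of root cold, root salt at 3 h and leaf cold at 3 and 27 h. The alternatives were array medians subtracted, quantile normalization, either spot alone, array weights, only the groups compared in the fit, a value on every array, stress against 0, a replicate block and leaving out each replicate.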

Additional observations from a re-analysis of the deposited data

Results flagged for a closer look

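The effect of salt on PHA1 differed between tissues by a test of the difference itself: leaf minus root was -0.568 log2 units averaged over times (SE 0.107, adjusted p = 0.000403), with a leaf mean of -0.09 and a root mean of 0.48. The effect of cold on PHA2-D also differed, with leaf minus root at -0.442 (SE 0.108, adjusted p = 0.00204), a leaf mean of -0.22 and a root mean of 0.22. Unlike that of PHA1, this call was lost with quantile normalization (adjusted p = 0.211) and without no-stress replicate 3 (0.0524). Of all clones tested, 4.13% were called in the salt comparison and 20% in the cold comparison. PHA2-A, PHA2-B and PHA2-C could not be tested between tissues. Their part in a tissue difference of PHA2 was not tested.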

How the results depend on the processing

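With 3 arrays per group, the precision of single-time differences is limited, and calls of PHA2-D also rest on 2 spots that agree less well than those of the other clones. Leaving out a replicate means that replicate of 1 treatment at all its times. The mean differences of PHA1 in root salt, of PHA2-A, PHA2-B and PHA2-C in leaf cold, and of PHA1 salt leaf minus root kept their direction and their call under every alternative run. Among the results for single clones, 86 alternatives ended a call, 31 made one and 3 reversed the direction. Where an alternative below changed a result, the cause was not tested.

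The reversals of single clones were PHA2-D in root cold at 27 h (-0.071) and on the mean over times (-0.056), both with quantile normalization, and the mean of PHA2-D in root salt against 0 (0.199).

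PHA1 minus PHA2-D: in root heat 0.269 with the replicate block and 0.212 on the first spot, no longer called, and 0.182 to 0.384 when a replicate was left out. In leaf heat it was 0.294 on the second spot, called, and 0.095 to 0.25 when a replicate was left out. In root cold leaving out a replicate gave -0.342 to -0.141. With PHA2-B in place of PHA2-D, chosen after seeing the data, PHA1 minus PHA2 was -0.884 in leaf cold and -0.346 in leaf salt, both reversed, and 0.305 in leaf heat. With the mean over the PHA2 clones it was -0.559 in leaf cold and -0.179 in leaf salt. That mean was not run in root, because the set of clones with a value changes between arrays, and neither was PHA2-B.

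Number of the pump clones called, out of at most 5. The share of all clones called under each alternative is not given, here or in the paragraphs below. A change in these counts therefore cannot be weighed against a general change in calls. Quantile normalization gave 2 in leaf cold at 9 h (in place of 5), 1 in leaf cold at 27 h (in place of 3), 1 in root cold at 27 h (in place of 2), 0 in root salt at 3 h (in place of 1), 0 in leaf salt minus cold (in place of 3), 1 in root salt minus cold (in place of 2), 0 in cold leaf minus root and in the root cold mean (in place of 1 each), and 1 each in the leaf heat and root heat means (in place of 0). Subtracting array medians gave 1 in root cold at 27 h and 0 in the root cold mean. The first spot alone gave 0 in leaf salt at 9 h, 0 in root cold at 27 h and 0 in the root cold mean. The second spot alone gave 0, 0 and 0 in the same 3, and 1 in the root heat mean. Only the groups compared in the fit gave 2 in leaf cold at 9 h, 0 in leaf salt at 9 h, 1 in root cold at 27 h, 0 in root salt at 3 h and 2 in the leaf salt mean (in place of 1). A value on every array gave 1 in root cold at 27 h, as did the replicate block, which changed no other count of calls and, among the within-array tests, ended that in root heat. In root cold at 27 h PHA2-B could not be tested on the second spot alone or with a value on every array, so its call was not lost there by a test.

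Stress arrays against 0 gave 1 in leaf cold at 3 h, 3 in leaf heat at 3 h, 0 in leaf salt at 9 h, 1 in root cold at each of 3, 9 and 27 h, 1 in root heat at 9 h and at 27 h, 2 in root salt at 3 h and 1 at 9 h. It gave 3 in the leaf heat mean, 0 in the leaf salt mean, 1 in the root heat mean, 2 in the root salt mean, 1 in leaf cold at 27 h minus 3 h, 2 in salt leaf minus root on the mean and at 3 h, and 1 at 9 and at 27 h. Array weights gave 1 in root salt at 9 h, 2 in the leaf salt mean and 1 in salt leaf minus root at each of 3, 9 and 27 h.

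Leaving out a replicate gave 0 to 1 in leaf cold at 3 h, 3 to 5 at 9 h and 0 to 3 at 27 h, 0 to 1 in leaf salt at 9 h, 0 to 2 in root cold at 27 h, 0 to 1 in root salt at 3 h and at 27 h, 0 to 1 in the root cold mean, 1 to 3 in leaf salt minus cold, 1 to 2 in root salt minus cold and 0 to 1 in cold leaf minus root.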
